A study of Mus musculus with 10 samples.

Results

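Keratins are the proteins of the intermediate filaments of epithelial cells, and 53 keratin genes were measured in tracheal mesenchyme taken from mice that had breathed chlorine and from mice that had not. They were chosen by symbol, as every gene called Krt and a number in the annotation of the array, and made up 53 of the 22180 genes measured. The samples were 5 chlorine-exposed mice, killed 4 days after 1 hr in air with 235 ppm chlorine, and 5 unexposed mice, all 9-week-old FVB/NJ males of an inbred strain. Tissue beneath the epithelium was cut from stained frozen sections by laser capture, the pieces from each mouse were combined, and each mouse gave 1 array. Precision is limited by the number of arrays. Values are log2 intensities, and a gene was called higher or lower at an adjusted p under 0.05 in limma, a linear model fitted on every gene, with Benjamini-Hochberg adjustment over all 22180.

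A keratin filament is built from dimers of an acidic type I keratin with a basic or neutral type II keratin, and epithelia of different kinds make different pairs. KRT8 and KRT18 are the pair of simple epithelia, KRT5 and KRT14 that of the basal layer, KRT4 and KRT13 that of the suprabasal layers of moist squamous linings such as the esophagus, and KRT1 and KRT10 that of cornifying skin. KRT6, KRT16 and KRT17 are known as stress keratins because keratinocytes at the edge of a wound make them. Of the 53 genes, 28 were type I and 25 type II. They were sorted into 8 classes: 6 simple epithelial, 2 basal, 4 stress, 5 mucosal squamous, 5 epidermal squamous, 8 other epithelial, 9 of the inner root sheath and companion layer of hair, and 14 of the hair shaft. The RefSeq gene table lists 1 further protein-coding keratin, the basal type II gene Krt5. It was not analysed here as a gene, because the probe set that carries its symbol also carries that of Krt6a.

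Marker genes were used to check the tissue label. Their counts stand beside 5.85% of all genes called higher and 4.97% called lower. Fibroblast and mesenchyme genes had mean log2 values of 9.35 to 9.90 in exposed mice and 9.04 to 9.35 in unexposed mice, and 8 of the 17 measured rose and 0 fell. Epithelial transcripts were present as well. The mean of 17 epithelial genes other than keratins was 6.35 to 8.09 in exposed mice and 7.52 to 7.94 in unexposed mice, and 0 of the 17 were called in either direction. Of 14 basal cell genes other than keratins, 3 rose and 0 fell, with means of 7.12 to 7.72 in exposed mice and 7.39 to 7.51 in unexposed mice. Of 22 genes of squamous and esophageal epithelium, 11 rose and 0 fell (means 6.06 to 7.08 in the exposed group, 5.06 to 5.51 in the unexposed group). Of 19 ciliated cell genes, 11 fell and 0 rose (4.88 to 7.95 exposed and 8.20 to 8.67 unexposed), and of 18 secretory cell genes, 8 fell and 0 rose (4.89 to 9.06 exposed and 9.68 to 10.05 unexposed). Exposed mouse 3 stood apart, with the lowest epithelial mean (6.35, with 7.47 to 8.09 in the other exposed mice), the lowest secretory mean (4.89) and the highest mesenchymal mean (9.90). Of the remaining marker lists, 7 of 13 macrophage and leukocyte genes rose and 0 fell (7.21 to 7.95 exposed and 6.75 to 7.27 unexposed), and 1 of 8 endothelial genes rose. Falls were called for 3 of 12 cartilage, 2 of 10 submucosal gland, 2 of 9 mesothelial and 1 of 6 thyroid genes, with 0 rises in each, for 1 of 15 hair follicle and skin genes beside 1 rise, and for 0 of 9 smooth muscle genes. What part the epithelial content of the captured pieces plays in the keratin values was not tested. In such bulk samples, fewer cells of a type and less RNA per cell cannot be told apart.

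After chlorine, 9 of the 53 keratins were higher and 0 were lower. The 9 were all 4 stress keratins (Krt6a, Krt6b, Krt16 and Krt17), the basal keratin Krt14, the simple keratins Krt20 and Krt7, and the mucosal keratins Krt13 and Krt78. They correspond to 17.0% of the keratins, beside 5.85% of all genes called higher, and the 0 lower stands beside 4.97% of all genes called lower. The groups did not overlap, with every exposed mouse above every unexposed mouse, for 7 of the 53, beside 5.89% of all genes. At least a 2-fold rise was called for 7, beside 1.85% of all genes. With 1 mouse left out in turn, 7 to 11 keratins were called higher. The 7 genes Krt6a, Krt6b, Krt14, Krt16, Krt17, Krt20 and Krt78 were among them in all 10 of these fits. The median log2 change of the 53 was 0.14, with -0.003 over all genes tested, and 33 changes were above 0 and 20 below. At an unadjusted p under 0.05, limma gave 14 higher keratins and 2 lower ones, Krt31 and Krt87. The share of all genes at that looser threshold was not counted, so these counts have no share to stand beside. Exposed mouse 3 held the lowest exposed value of 8 of the 9 called keratins, and exposed mouse 4 the highest of 5.

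**Figure D1:**
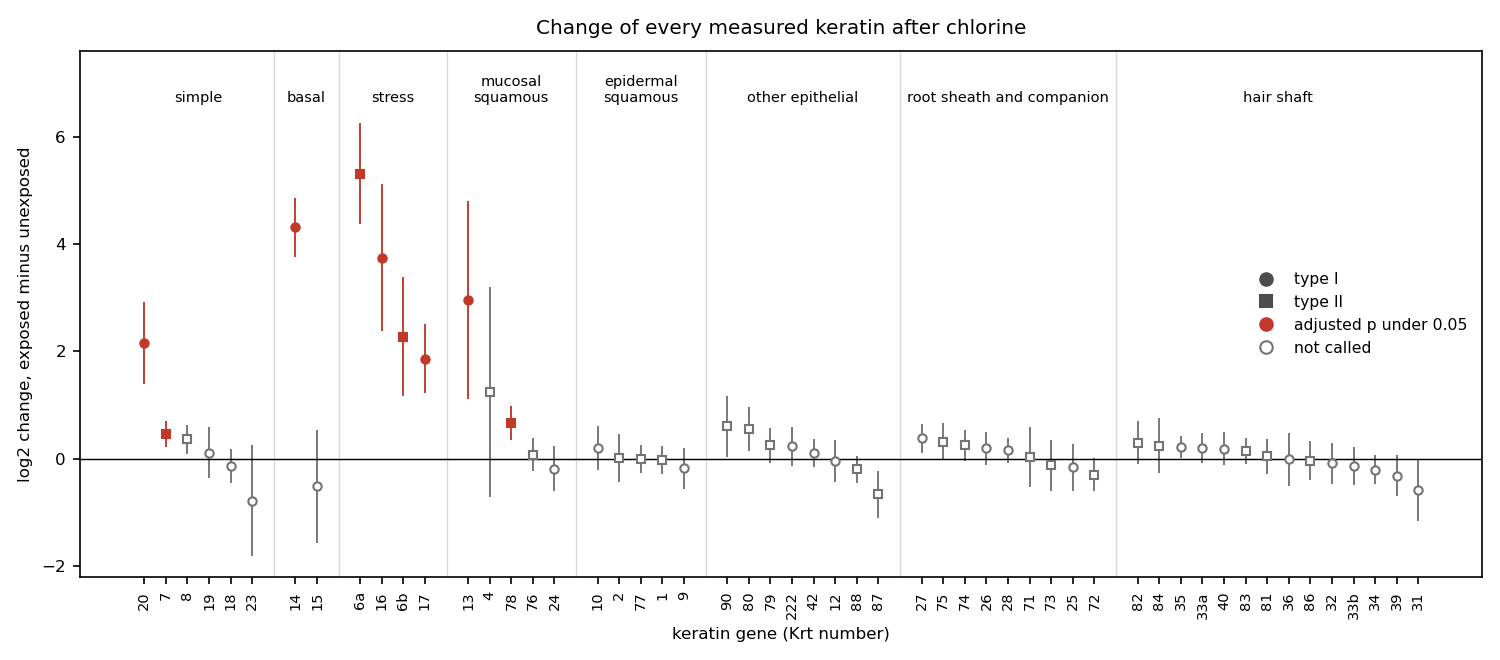
Log2 change, exposed minus unexposed, of the 53 measured keratins by class, with 95% confidence intervals from limma. Circles are type I and squares type II, and filled red symbols mark an adjusted p under 0.05. The 4 stress keratins all lie above 1.8, while the 23 hair and root sheath keratins lie between -0.59 and 0.38 and none of them was called.

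All 4 stress keratins rose, by a median log2 change of 3.01. Krt6a, a type II keratin induced in keratinocytes by wounding, had log2 values of 10.60, 10.43, 9.22, 10.87 and 10.03 in exposed mice 1 to 5, against 5.25, 6.12, 5.21, 3.77 and 4.23 in unexposed mice 1 to 5. The lowest exposed value lay 3.10 log2 units above the highest unexposed one, and the means were 10.23 ± 0.64 in exposed mice and 4.91 ± 0.93 in unexposed mice (SD, n = 5 each). In limma its log2 change was 5.32, or 39.8-fold (SE 0.43, adjusted p = 4.40e-05). Its type I partner Krt16 had 8.78, 9.07, 5.64, 8.84 and 6.35 in exposed mice, against 4.05, 3.58, 3.55, 4.26 and 4.51 in unexposed mice. The groups did not overlap, but the exposed mice fell apart, mice 1, 2 and 4 near 9 and mice 3 and 5 below 6.5. Its log2 change was 3.75 (SE 0.63, adjusted p = 0.00292), and 4.27 without exposed mouse 3.

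Krt17, a type I keratin of stressed and migrating epithelium, had 10.68, 10.52, 9.07, 10.75 and 9.87 in exposed mice, against 8.02, 8.46, 8.53, 8.58 and 8.00 in unexposed mice, all well above the array medians of 5.10 to 5.18. Each exposed value was above each unexposed one, and the change was 1.86 (3.63-fold, SE 0.29, adjusted p = 0.00208). Krt6b, the paralog of Krt6a, had 8.53, 7.92, 5.39, 7.003 and 6.17 in exposed mice, against 4.18, 4.91, 4.40, 4.79 and 5.33 in unexposed mice. The groups were separated by a narrow margin, 5.39 in exposed mouse 3 against 5.33 in unexposed mouse 5. Its change was 2.28 (4.85-fold, SE 0.51, adjusted p = 0.0151), with 1.89 to 2.68 over the fits that left out 1 mouse. Krt6a and Krt6b are close in sequence, as are Krt14, Krt16 and Krt17, so the share of each gene in these signals is uncertain. A probe set listed under both Krt5 and Krt6a had a log2 change of 0.92 and one listed under Krt6b and another gene 0.15, and neither was called. Among the measured keratins, Krt6b and Krt6a are neighbours on chromosome 15, and Krt14, Krt16 and Krt17 follow each other on chromosome 11. The keratins on either side of these runs, Krt75 and Krt71, and Krt9 and Krt42, were not called (log2 changes 0.32, 0.02, -0.18 and 0.10).

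**Figure D2:**
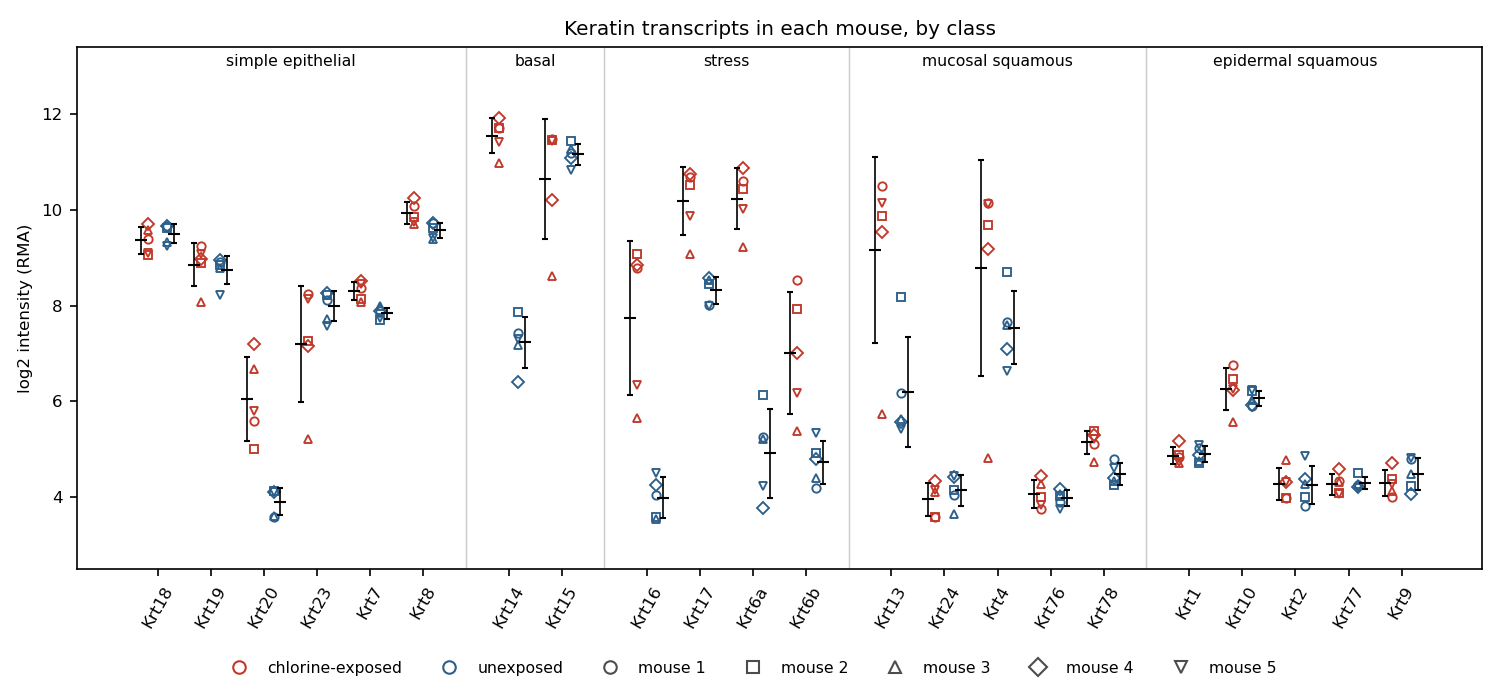
Log2 intensity of the 22 measured simple, basal, stress, mucosal and epidermal keratins in each mouse, exposed mice (red) left of unexposed mice (blue), with a marker shape for each mouse number and bars for the mean ± SD of 5 mice. Krt14 and Krt6a were high in all 5 exposed mice, although lowest of these in mouse 3. Among the exposed mice Krt13, Krt4, Krt15 and Krt23 were also lowest in mouse 3, where they lay within or below the unexposed range.

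The basal keratins that were measured, both type I, did not move together. Krt14, which pairs with KRT5 in basal cells, had 11.71, 11.71, 10.98, 11.92 and 11.41 in exposed mice, against 7.43, 7.87, 7.17, 6.41 and 7.29 in unexposed mice. It had the narrowest spread among the exposed mice of the keratins that rose more than 2-fold (SD 0.36, n = 5), and its change was 4.31 (SE 0.25, adjusted p = 6.77e-06), with 4.11 to 4.47 over the fits that left out 1 mouse. Krt15, a keratin of quiescent basal and progenitor cells, was not called. It had 11.48, 11.47, 8.61, 10.21 and 11.44 in exposed mice, against 11.19, 11.43, 11.27, 11.08 and 10.84 in unexposed mice. Exposed mice 1, 2 and 5 were at or just above the unexposed range, and mice 3 and 4 were below it. The change of Krt15 was -0.52 (95% interval -1.57 to 0.54, adjusted p = 0.581) with all mice and -0.01 without exposed mouse 3.

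The 6 simple epithelial keratins went separate ways, with 2 called higher, 0 lower and a median change of 0.24 (0.15 without unexposed mouse 5, 0.36 without exposed mouse 3). Krt20, a type I keratin of intestinal epithelium, urothelial umbrella cells and Merkel cells, showed the largest change. Its values were 5.60, 5.00, 6.68, 7.20 and 5.79 in exposed mice, against 3.58, 4.12, 3.60, 4.11 and 4.10 in unexposed mice. All exposed values were above all unexposed ones, by a change of 2.15 (4.44-fold, SE 0.35, adjusted p = 0.00253). Its order among the exposed mice was unlike that of the stress keratins, with exposed mouse 3, the lowest for all 4 of those, at 2.78 above the unexposed mean and next to the highest, mouse 4, at 3.29. All its unexposed values lay below the array medians, and its fold is uncertain in size because no detection limit was set, as it is for Krt6a, Krt6b, Krt16 and Krt78, whose unexposed means also lay there.

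Krt7, a type II keratin of ducts and airways, had 8.36, 8.13, 8.08, 8.51 and 8.45 in exposed mice, against 7.89, 7.70, 7.98, 7.88 and 7.75 in unexposed mice. The groups did not overlap, although the change was small, 0.47 (1.38-fold, SE 0.11, adjusted p = 0.0196). Leaving out either exposed mouse 4 or unexposed mouse 2 ended that call (adjusted p 0.0115 to 0.0506 over the 10 fits). Krt8 had 10.08, 9.85, 9.70, 10.24 and 9.75 in exposed mice, against 9.71, 9.61, 9.39, 9.72 and 9.41 in unexposed mice. Of the 5 exposed mice, 4 were above the whole unexposed range, and the change of 0.36 (SE 0.13, adjusted p = 0.102) was not called. Its partner Krt18 had 9.39, 9.06, 9.57, 9.71 and 9.09 in exposed mice, against 9.66, 9.62, 9.33, 9.67 and 9.24 in unexposed mice, a change of -0.14 (95% interval -0.46 to 0.19, adjusted p = 0.640). Its 2 probe sets changed by -0.15 and -0.13.

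Krt19, a type I keratin of simple and ductal epithelium, was 8.08 to 9.25 in exposed mice and 8.23 to 8.94 in unexposed mice, with a change of 0.11 (95% interval -0.36 to 0.58, adjusted p = 0.810). Krt23, a divergent type I keratin, had 8.23, 7.26, 5.21, 7.15 and 8.14 in exposed mice, against 8.12, 8.22, 7.72, 8.27 and 7.58 in unexposed mice. Exposed mice 1 and 5 were within the unexposed range and mice 2, 3 and 4 below it, and the change of -0.78 (SE 0.48, adjusted p = 0.357) was not called and became -0.29 without exposed mouse 3.

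Of the 5 mucosal squamous keratins, 2 rose, 0 fell and 3 were not called, with a median change of 0.66. Krt13, the type I partner of KRT4, had 10.50, 9.86, 5.74, 9.55 and 10.14 in exposed mice, against 6.18, 8.19, 5.62, 5.58 and 5.43 in unexposed mice. Of the exposed mice, 4 stood above every unexposed mouse and mouse 3 stood among them, while unexposed mouse 2 was well above the rest of its group. The change was 2.96 (7.78-fold, SE 0.85, adjusted p = 0.0455), and this call was lost in 8 of the 10 fits without 1 mouse (adjusted p 0.000902 to 0.102) and with the trend and robust settings of limma (adjusted p = 0.0950). The change was 3.81 without exposed mouse 3 (adjusted p = 0.000902).

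Krt4 had 10.14, 9.69, 4.82, 9.18 and 10.11 in exposed mice, against 7.66, 8.70, 7.60, 7.10 and 6.64 in unexposed mice. Exposed mouse 3 was lower than all unexposed mice and the other 4 were higher, so that the change of 1.25 (SE 0.89, 95% interval -0.71 to 3.20, adjusted p = 0.449) was not called. Without exposed mouse 3 it was 2.24 (adjusted p = 0.00311). Krt78, a type II keratin of the esophagus and other stratified linings, had 5.11, 5.37, 4.74, 5.29 and 5.20 in exposed mice, against 4.80, 4.26, 4.34, 4.39 and 4.61 in unexposed mice. The groups overlapped only through exposed mouse 3 and unexposed mouse 1, and the change was 0.66 (1.58-fold, SE 0.14, adjusted p = 0.0125). Krt76, a keratin of the palate and gum, and Krt24 stayed below 4.5 in all mice, with changes of 0.08 and -0.19 (adjusted p = 0.807 and 0.622).

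RefSeq promoters (GRCm38.p6, 250 bases before to 50 after the start) were at hand for 35 of the 53 keratins, 36 promoters in all, and for none of the 4 stress keratins. The letters ATAAA, the core of a TATA box, were looked for on both strands with their first base 40 to 20 bases upstream of the start. They were found for 19 of the 36 keratin promoters (52.8%) and for 6.32% of all 32851 promoters in the table. Of the 5 called genes with a promoter at hand, 3 had a match (Krt20, Krt78 and 1 of the 2 starts of Krt13). Krt7 and Krt14 had none, while 16 of the 30 uncalled genes had one. In Krt7, and in uncalled genes such as Krt27 and Krt33b, ATAAA occurs only outside the stretch 40 to 20 bases upstream and was not counted. These counts thus depend on where the start is placed. The starts at hand for Krt14 and Krt78, and the other Krt13 start, lie inside the stretch that RefSeq gives for the gene. The same holds for some uncalled genes. The outermost 5′ ends of Krt14 and Krt78 were thus not searched. The letters TGANTCA, a loose form of the AP-1 site that allows any base in the middle, were looked for on both strands over all 300 bases. They were found at both Krt13 starts and at no other keratin start, 5.56% of keratin promoters beside 7.81% of all, and no 2 matches of the different motifs overlapped. The 3 called keratins with an ATAAA match are shown 5′ to 3′ on the strand of the gene, all of it the minus strand of the chromosome, with the matches to ATAAA and TGANTCA in capitals. The windows are chr11:99438104-99438403 for Krt20, chr11:100121517-100121816 for the Krt13 start that has both motifs, and chr15:101954238-101954537 for Krt78.
Krt20: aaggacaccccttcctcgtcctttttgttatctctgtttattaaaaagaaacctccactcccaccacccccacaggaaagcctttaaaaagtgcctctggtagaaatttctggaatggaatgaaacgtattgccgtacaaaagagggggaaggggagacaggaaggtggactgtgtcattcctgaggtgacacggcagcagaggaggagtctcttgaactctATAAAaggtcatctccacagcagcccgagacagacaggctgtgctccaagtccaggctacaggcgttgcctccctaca
Krt13: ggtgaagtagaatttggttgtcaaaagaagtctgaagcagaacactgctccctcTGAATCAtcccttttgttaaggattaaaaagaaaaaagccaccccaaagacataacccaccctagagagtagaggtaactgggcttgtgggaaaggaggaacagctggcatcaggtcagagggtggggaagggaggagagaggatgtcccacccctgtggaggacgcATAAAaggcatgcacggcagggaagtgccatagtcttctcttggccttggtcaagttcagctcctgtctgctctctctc
Krt78: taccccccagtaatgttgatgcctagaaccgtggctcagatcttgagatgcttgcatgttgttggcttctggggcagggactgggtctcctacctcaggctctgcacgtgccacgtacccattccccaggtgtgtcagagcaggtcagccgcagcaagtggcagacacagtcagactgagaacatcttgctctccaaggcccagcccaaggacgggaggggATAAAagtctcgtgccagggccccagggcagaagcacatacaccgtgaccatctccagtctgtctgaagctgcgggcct
Counted from the start, the ATAAA match begins at -28 in Krt20 and at -29 in Krt13 and Krt78, and the TGANTCA match of Krt13 begins at -196. That match reads TGAATCA, which is not the AP-1 consensus. The other Krt13 start, which is not shown, has 2 matches to TGANTCA. Both read TGACTCA, which is the AP-1 consensus. Such matches describe the letters of the window only.

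None of the 5 keratins of cornifying epidermis was called, beside 10.8% of all genes called in either direction, and so few genes cannot be told from that share. The 5 genes Krt1, Krt2, Krt9, Krt10 and Krt77 had log2 changes of -0.18 to 0.19 (adjusted p 0.594 to 0.983), with a median of -0.01. Krt10, the type I partner of KRT1 in suprabasal epidermis, had 6.76, 6.47, 5.56, 6.25 and 6.25 in exposed mice, against 5.89, 6.22, 6.03, 5.93 and 6.24 in unexposed mice. Exposed mice 1 and 2 were above the unexposed range, mice 4 and 5 at its upper edge and mouse 3 below it, and the change of 0.19 had a 95% interval of -0.22 to 0.61. Krt1, the type II partner of Krt10, lay between 4.71 and 5.16 in all 10 mice, with a change of -0.03 (95% interval -0.28 to 0.23). Krt2 of the upper epidermis, Krt9 of palm and sole skin and Krt77 of sweat ducts had group means of 4.27 to 4.30 in exposed mice and 4.26 to 4.48 in unexposed mice. Values of that size lie below the array medians, where a change in a low transcript level may not have been measurable.

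Of the 8 other epithelial keratins none was called, which likewise cannot be told from the 10.8% of all genes called in either direction. The gene nearest to the threshold was Krt87, a type II keratin, which had 5.06, 4.92, 4.50, 4.90 and 4.92 in exposed mice, against 5.63, 5.54, 5.96, 5.73 and 4.77 in unexposed mice. Only unexposed mouse 5 overlapped the exposed group, and the change was -0.67 (SE 0.20, adjusted p = 0.0541). Without unexposed mouse 5 it was -0.86 (adjusted p = 0.00372), and Krt87 was then a keratin called lower. On chromosome 15 it lies next to Krt88 and close to the hair shaft keratins Krt81, Krt86 and Krt83, so its class is uncertain. Krt80, a type II keratin found in many epithelia, had 6.89, 6.69, 5.98, 6.94 and 6.92 in exposed mice, against 6.17, 6.39, 6.03, 6.30 and 5.79 in unexposed mice. As for Krt4, 4 exposed mice were above the unexposed range and mouse 3 was not, with a change of 0.55 (SE 0.19, adjusted p = 0.0940) that became 0.72 without exposed mouse 3 (adjusted p = 0.00554). The remaining genes of the class, Krt12, Krt42, Krt79, Krt88, Krt90 and Krt222, had changes between -0.20 and 0.60.

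The 23 keratins of hair and its sheaths, most of them dim on these arrays, included none that was called, beside 10.8% of all genes in either direction. Their log2 changes lay between -0.59 and 0.38, 13 above 0 and 10 below, and 21 had means below the array medians in both groups. Krt87, whose class is uncertain, was not counted among them, and with it the range would reach -0.67. The nearest to the threshold in the inner root sheath and companion layer class were Krt27 (4.54 to 5.06 in exposed mice and 4.07 to 4.58 in unexposed mice, change 0.38, adjusted p = 0.0779) and Krt72 (3.22 to 3.55 exposed and 3.44 to 4.06 unexposed, change -0.30, adjusted p = 0.210). Among the hair shaft keratins they were Krt35 (4.81 to 5.18 in exposed mice and 4.69 to 4.86 in unexposed mice, change 0.22, adjusted p = 0.174) and Krt31 (3.31 to 4.50 exposed and 3.82 to 4.89 unexposed, change -0.59, adjusted p = 0.197). Without exposed mouse 2, Krt31 was called lower, with a log2 change of -0.80 (adjusted p = 0.0478).

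**Figure D3:**
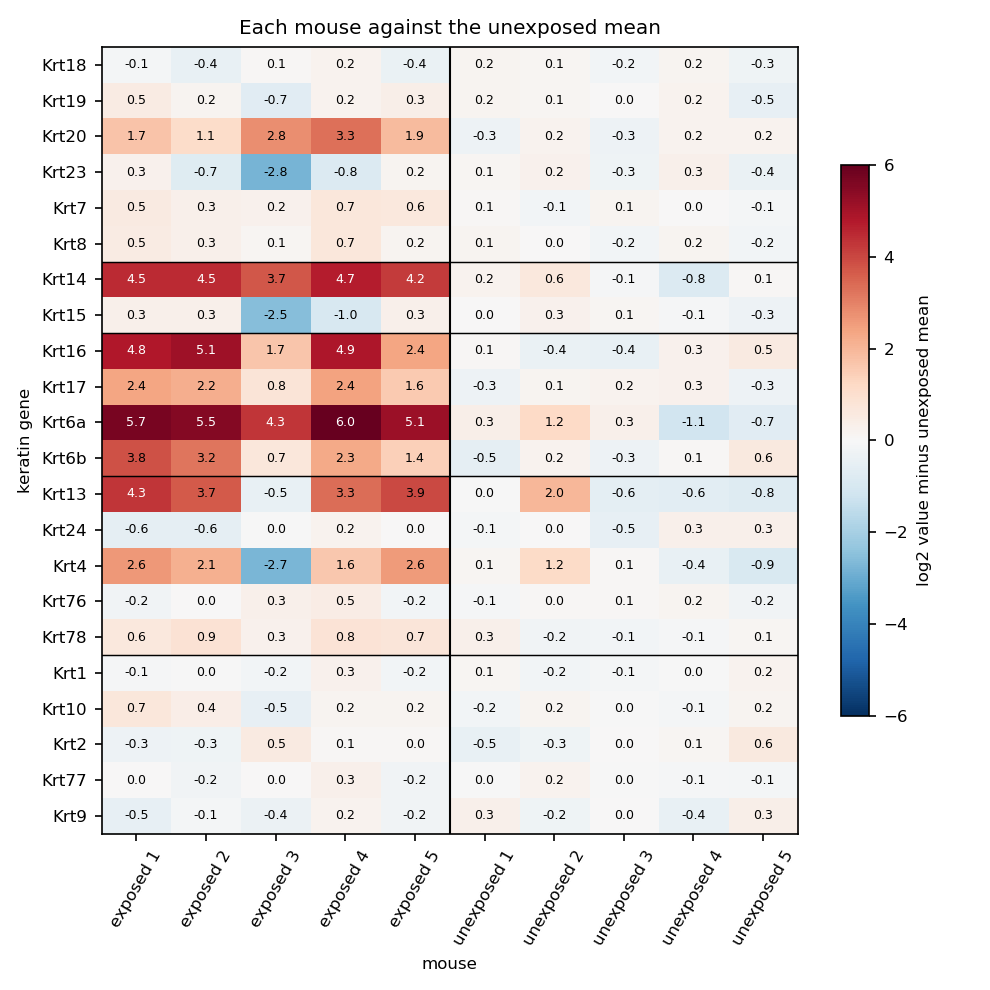
Log2 value of each of 22 keratins in each mouse less the unexposed mean of that gene, with exposed mice on the left. Exposed mouse 3 had Krt14 and Krt6a at 3.75 and 4.31 above the unexposed mean but Krt15, Krt23 and Krt4 more than 2 below it, and unexposed mouse 2 had Krt13 at 1.99 above it.

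The exposed mice differed in which keratins were high. Krt6a and Krt14 were raised in all 5, by 4.31 to 5.96 and by 3.75 to 4.69 above the unexposed mean. Krt16 was raised by 4.79 to 5.08 in exposed mice 1, 2 and 4, but by 2.36 in mouse 5 and 1.66 in mouse 3. Krt13 was raised by 3.35 to 4.30 in 4 mice and was 0.45 below the unexposed mean in mouse 3. Exposed mouse 5 thus combined a high Krt13 (10.14) and Krt4 (10.11) with a Krt16 value (6.35) nearer to that of mouse 3. Among the unexposed mice, mouse 2 held the highest value of Krt6a (6.12), Krt14 (7.87), Krt13 (8.19), Krt4 (8.70) and Krt20 (4.12). It was not high for every keratin, as it held the lowest unexposed value of Krt7 (7.70) and Krt78 (4.26). Its Krt16 value (3.58) lay below the unexposed mean (3.99). The mean of the squamous genes other than keratins was also highest in unexposed mouse 2 (5.51, with 5.06 to 5.22 in the others of its group), and whether the keratins follow it was not tested.

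Type II and type I partners were followed within each mouse as the type II value less the type I value, set to 0 at the unexposed mean. For 7 pairs both partners were measured, and these differences were not tested. In the Krt4/Krt13 pair the difference was -1.71 on average, -2.27 to -1.37 in exposed mice and -0.83 to 0.64 in unexposed mice. The groups did not overlap, and exposed mouse 3 had the lowest value although neither gene was raised there. In that mouse Krt4 stood at -2.72 and Krt13 at -0.45 from the unexposed mean, so its difference reflects a lower Krt4. Krt13 was near the array medians in most unexposed mice, so a fall of Krt13 may not have been measurable. In the other exposed mice both genes were raised, and Krt13 by more than Krt4. In the Krt8/Krt18 pair the difference was 0.50 on average, 0.06 to 0.73 in exposed mice and -0.07 to 0.10 in unexposed mice, with exposed mouse 3 alone inside the unexposed range. In the Krt6a/Krt16 pair it was 1.57 on average, but 0.44 to 2.75 in exposed mice and -1.41 to 1.62 in unexposed mice, so the groups overlapped. Krt6b/Krt17 (0.42), Krt7/Krt19 (0.35), Krt1/Krt10 (-0.22) and Krt2/Krt10 (-0.18) also overlapped. By type, 5 of the 28 type I and 4 of the 25 type II keratins were called higher, with median changes of 0.11 and 0.24.

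**Figure D4:**
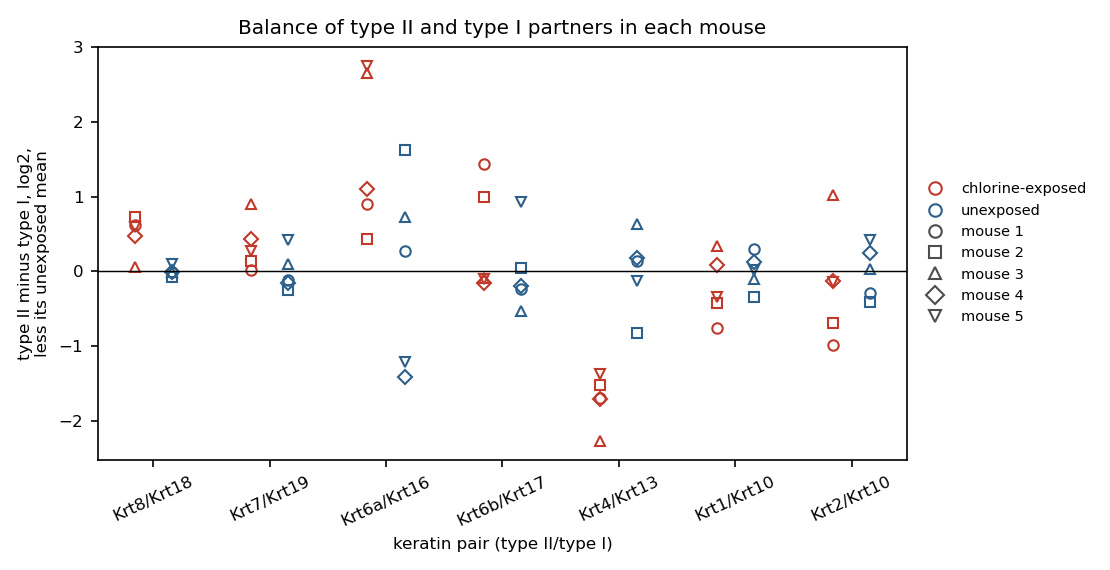
Type II less type I log2 value in each mouse for 7 keratin pairs, set to 0 at the unexposed mean, exposed mice (red) left of unexposed mice (blue). Points of the Krt4/Krt13 pair in exposed mice all lie below those in unexposed mice, and the Krt6a/Krt16 points spread widely in both groups.

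Genes that anchor, bundle or regulate keratins were followed as well. Their counts stand beside 5.85% of all genes called higher and 4.97% called lower. Of 14 desmosome genes, 4 rose and 0 fell, with a median change of 0.43. The largest rises were those of Dsg3, the desmosomal cadherin of basal and squamous cells (6.88 to 8.45 in exposed mice and 3.63 to 4.91 in unexposed mice, change 3.96, adjusted p = 4.40e-05), and of Dsc2, a desmocollin (6.38 to 8.74 exposed and 6.04 to 6.57 unexposed, change 1.77, adjusted p = 0.0121). Of 7 hemidesmosome genes, 2 rose and 0 fell, with a median of 0.27. These were Itga6, the integrin chain of hemidesmosomes (8.01 to 9.06 in exposed mice and 7.35 to 7.89 in unexposed mice, change 0.96, adjusted p = 0.00477), and Col17a1, a transmembrane collagen that holds basal cells to the basement membrane (means 6.999 ± 0.24 in exposed mice and 6.47 ± 0.10 in unexposed mice, SD, n = 5 each, change 0.53, adjusted p = 0.0165). Both Itga6 and Col17a1 are also on the list of basal cell genes, so the rises counted there include these 2. The 13 measured keratin organizers, such as filaggrin, held 0 called genes and a median of 0.03.

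Of 34 transcription factors known to act on keratin genes, 1 rose and 1 fell, with a median of -0.04. Both shares are below those of all genes, 5.85% higher and 4.97% lower. Sox15, a factor of basal epithelium, had 5.81 to 6.96 in exposed mice and 5.48 to 5.96 in unexposed mice (change 0.66, adjusted p = 0.0393), and Hes1, a Notch target, had 6.35 to 7.68 in exposed mice and 7.78 to 8.20 in unexposed mice (change -0.78, adjusted p = 0.0454). These calls were lost in 7 and 8 of the 10 fits without 1 mouse, with adjusted p up to 0.0960 and 0.100. Of 17 other intermediate filament genes, 3 rose and 0 fell, with a median of 0.07. The largest rises were those of the nuclear lamins, Lmnb1 (7.53 to 8.26 in exposed mice and 6.65 to 7.17 in unexposed mice, change 1.04, adjusted p = 0.000829) and Lmna (8.04 to 8.67 exposed and 7.52 to 7.71 unexposed, change 0.76, adjusted p = 0.00261).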

How the data were processed

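Total RNA of 10 mice, 1 Affymetrix array each, was measured after labelling with the WT Plus kit, per the labels' protocols. The deposited values are log2 intensities per probe set and, per the submitters' processing notes, RMA and Partek 6.6 were used. Their range fits a log2 scale. The sources used here do not give RMA settings or filters. Scanner files were not used here, so no detection limit was set. Of 41345 probe sets, 23521 had 1 gene symbol, 1814 several and 16010 were not listed in the platform annotation. A gene's value is the mean of its single-symbol probe sets, which left 22180 genes; the keratins had 54 such probe sets, and 2 that list a keratin with another gene were set aside. The group comparison used lmFit and eBayes of limma 3.58.1 (R 4.3.3, two-sided, no covariate), with p adjusted by Benjamini-Hochberg over all genes, and the script was tested on simulated data. Each array is a separate animal. Mouse numbers are shared by the groups but did not pair them: same-numbered mice correlated at -0.05 to 0.12 in their deviations. Every measured member of the simple, basal, stress, mucosal and epidermal classes was named whatever its value, as were called keratins, the 2 uncalled with the smallest p in each other class, and up to 2 rises and 2 falls of each linked list. Members, classes, pairs and lists were chosen with earlier results of these data known, and the promoter motifs after the calls were seen. Alternatives were other normalizations, the brightest probe set, a filter on dim genes, trend and robust settings, array weights, a block for mouse number, leaving out each mouse in turn, exposed mice 1 and 3 left out together, stricter thresholds and single probe sets. Tables and figures were made with Python 3.11.15, pandas 2.3.3 and matplotlib 3.10.9.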

Additional observations from a re-analysis of the deposited data

Results flagged for a closer look

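Single mice stood far from the rest of their group in 8 of the 56 groups of 5 tested for a distant highest or lowest value (28 keratins in each group), where chance gives about 1 in 20. Exposed mouse 3 was the distant mouse 4 times, each time as the lowest. Its value was 5.74 for Krt13 (9.55 to 10.50 in the other exposed mice), 4.82 for Krt4 (9.18 to 10.14), 5.98 for Krt80 (6.69 to 6.94) and 4.50 for Krt87 (4.90 to 5.06). Exposed mouse 2 was high for the hair shaft keratin Krt31, at 4.50 with 3.31 to 3.62 in the others. Unexposed mouse 2 was high for Krt13, at 8.19 with 5.43 to 6.18 in the others, and for Krt77, at 4.50 with 4.19 to 4.28. Unexposed mouse 5 was low for Krt19, at 8.23 with 8.79 to 8.94 in the others. These genes share the same arrays, so their distant values are not independent of each other.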

How the results depend on the processing

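The count of keratins called higher, 9, was 7 to 11 with 1 mouse left out, highest without exposed mouse 3, 11 without exposed mice 1 and 3, 8 with the replicate block (which ended the call of Krt7 and of no other named keratin), 8 with trend and robust settings (without Krt13) and 5 at an adjusted p under 0.01. The count called lower, 0, was 0 to 1 with 1 mouse left out, and 1 with trend and robust settings or array weights. The gene was Krt87, except without exposed mouse 2, where it was Krt31. The epidermal median of -0.01 was -0.096 to 0.034 with 1 mouse left out. The hair shaft median of 0.01 was -0.051 to 0.11 with 1 mouse left out. Small changes of uncalled genes turned sign. Krt1 (-0.03) became 0.0035 after median centring and 0.033 without exposed mice 1 and 3, and ranged from -0.10 to 0.023 with 1 mouse left out. Krt2 (0.01) became -0.030 with array weights and -0.059 without exposed mice 1 and 3, with a range of -0.12 to 0.16. Krt77 (-0.01) became 0.0088 after further quantile normalization and 0.016 after median centring, with a range of -0.10 to 0.040. Krt19 ranged from -0.016 to 0.31 and Krt76 from -0.018 to 0.15. Of the 491 comparisons of a named keratin with its main value, 452 kept direction and side of the threshold. Krt20, Krt78 and other genes with means under the median of all genes were not tested under the filter on dim genes. Low signal limits the keratins whose means lay below the array medians.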
